A study of Mus musculus with 28 samples.

Results

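The genes described here are 35 mouse genes that make cholesterol and fatty acids or control that synthesis, out of 17995 genes listed in either of the study's tables. They were taken by name from a list of pathway genes, by a rule that used no measured value, and all 35 were present in both the blastocyst and the morula table. By role, 8 make the isoprenoid units and their chains, 11 turn farnesyl diphosphate into cholesterol by way of squalene, 6 sense, regulate or carry sterols, and 10 make, lengthen or desaturate fatty acids. RNA was sequenced from single whole CD1 mouse embryos labelled for knockout of Ctcf or as its controls. Ctcf is the gene of a zinc finger protein that binds DNA and halts the loops drawn by cohesin. The blastocysts were MZ_KO (n = 3), M_KO (n = 4), het (n = 4) and WT_flfl (n = 3), and the morulae were MZKO (n = 6), del (n = 4) and het (n = 3). The series title places the work around a change of metabolism between those stages. These group names stand as labelled: the labels spell out neither the alleles behind them nor the Cre that made the deletion. The deposited tables name embryonic day 3.5 for the blastocysts and embryonic day 2.5 for the morulae.

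Cells build cholesterol from acetyl-CoA in a long chain of enzymes in the cytosol and the endoplasmic reticulum, and fatty acids from the same acetyl-CoA in the cytosol. Both branches answer to the SREBP transcription factors, which Scap escorts out of the endoplasmic reticulum when sterols are low and which the Insig proteins hold back when sterols are high. The preimplantation embryo grows without a blood supply, and its dividing cells need both lipids for new membrane.

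The starts of 6 members are shown. Mvk, Ggps1, Ebp, Elovl1 and Elovl5 are the 5 of 7 members changed in MZ_KO blastocysts that matched a RefSeq start. The other changed members, Scd1 and Stard4, had no match and are not shown. Hmgcs1, the gateway of the mevalonate chain, was the 1 matched member with the sterol response letters searched for. Each window runs 5′ to 3′ on the gene's strand, from 250 bases before the annotated start to 50 after it, from RefSeq on GRCm38.p6. Hmgcs1 is at chr13:119690101-119690400 on the plus strand, Mvk at chr5:114444019-114444318 on the plus strand and Ggps1 at chr13:14063439-14063738 on the minus strand. Ebp is at chrX:8193463-8193762 on the minus strand, Elovl1 at chr4:118427843-118428142 on the plus strand (the first of its 2 entries) and Elovl5 at chr9:77917115-77917414 on the plus strand. Capitals mark the sterol response letters TCACNCCAC, the NF-Y letters CCAAT, the GC box GGGCGG and the CTCF letters AGGGGGC, each on either strand.
Hmgcs1: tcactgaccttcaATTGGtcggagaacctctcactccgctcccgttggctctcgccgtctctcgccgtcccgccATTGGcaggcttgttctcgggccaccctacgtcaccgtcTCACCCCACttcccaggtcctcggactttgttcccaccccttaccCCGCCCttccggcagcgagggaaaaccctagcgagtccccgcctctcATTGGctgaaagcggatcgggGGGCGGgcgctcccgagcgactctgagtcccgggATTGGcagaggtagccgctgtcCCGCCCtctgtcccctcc
Mvk: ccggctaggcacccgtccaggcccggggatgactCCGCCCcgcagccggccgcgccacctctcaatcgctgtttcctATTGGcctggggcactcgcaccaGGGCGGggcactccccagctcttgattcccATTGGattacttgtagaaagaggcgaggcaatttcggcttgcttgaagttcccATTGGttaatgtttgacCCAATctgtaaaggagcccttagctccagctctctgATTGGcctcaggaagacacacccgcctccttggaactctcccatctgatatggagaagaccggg
Ggps1: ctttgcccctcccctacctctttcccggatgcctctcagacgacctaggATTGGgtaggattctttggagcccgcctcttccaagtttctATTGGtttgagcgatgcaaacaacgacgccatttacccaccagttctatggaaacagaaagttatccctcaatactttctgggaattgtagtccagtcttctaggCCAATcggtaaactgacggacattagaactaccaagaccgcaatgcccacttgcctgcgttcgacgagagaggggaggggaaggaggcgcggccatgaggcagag
Ebp: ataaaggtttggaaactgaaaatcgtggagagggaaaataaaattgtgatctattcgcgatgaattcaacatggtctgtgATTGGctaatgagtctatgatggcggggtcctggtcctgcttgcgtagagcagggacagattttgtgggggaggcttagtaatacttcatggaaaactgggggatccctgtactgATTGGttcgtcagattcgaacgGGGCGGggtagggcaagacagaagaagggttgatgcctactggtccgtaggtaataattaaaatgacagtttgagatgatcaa
Elovl1: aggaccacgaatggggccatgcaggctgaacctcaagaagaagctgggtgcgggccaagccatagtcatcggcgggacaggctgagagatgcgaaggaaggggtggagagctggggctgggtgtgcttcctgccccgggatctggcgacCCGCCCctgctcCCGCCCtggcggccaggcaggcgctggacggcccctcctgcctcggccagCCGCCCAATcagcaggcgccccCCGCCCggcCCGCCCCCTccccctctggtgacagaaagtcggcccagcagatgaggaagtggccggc
Elovl5: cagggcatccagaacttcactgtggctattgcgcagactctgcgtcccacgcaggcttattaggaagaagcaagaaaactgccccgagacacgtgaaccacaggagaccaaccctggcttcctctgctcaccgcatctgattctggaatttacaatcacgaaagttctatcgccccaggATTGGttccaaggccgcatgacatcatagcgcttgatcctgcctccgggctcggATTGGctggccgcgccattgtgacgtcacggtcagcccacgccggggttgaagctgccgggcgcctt

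Of the 35 members, 28 matched a RefSeq start, with 37 entries in all. The letters CCAAT, bound by NF-Y, were in 24 of these 37 entries (64.9%), against 37.4% of all 32851 entries. The letters GGGCGG, the GC box of Sp1, were in 27 (73%), against 35.7% of all. The sterol response letters TCACNCCAC were in 1 member entry, that of Hmgcs1, and in 1.24% of all entries. The letters AGGGGGC, part of the CTCF motif, were in 5 member entries (13.5%), against 10.6% of all, those of Cyp51, Elovl1, Lss and Scap. Of the windows printed here Elovl1 holds them, once, where they share bases with a GC box. These shares describe letters in a window and say nothing about whether a factor was bound.

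Ctcf RNA was low in MZ_KO, MZKO and del embryos but not in M_KO, and a few libraries stood apart. Levels are CPM, read counts scaled to a common library size with the authors' scaling. Ctcf averaged 3.62 ± 0.66 CPM in MZ_KO, 69.5 ± 15.6 CPM in M_KO, 67.5 ± 9.73 CPM in het and 95.1 ± 6.02 CPM in WT_flfl blastocysts (SD), and 4.33 ± 3.60 CPM in MZKO, 2.30 ± 2.68 CPM in del and 38.6 ± 14.6 CPM in het morulae. Reads in genes numbered 7377302 to 27883060 per blastocyst and 1635553 to 20414013 per morula, and all but the shallowest morula, del 6, held at least 7377302. Among blastocysts, het 6 and WT_flfl 1 held the most blood marker RNA, chiefly haemoglobin, at 31487 and 34490 CPM summed over 6 genes. Among morulae, MZKO 1 and het 1 stood apart with the most genes detected (16343 and 16329) and with oviduct marker RNA at 2049 and 1344 CPM, where no other morula passed 266 CPM. Counts of changed members are therefore also given without these pairs. Blastocysts and morulae were sequenced in different batches and deposited in separately scaled tables, so stage and batch cannot be told apart and levels were tested within a stage only. MZ_KO and M_KO blastocysts share one title prefix and het and WT_flfl another, and MZKO morulae differ in prefix from del and het. The labels do not say what the prefix marks. In comparisons of MZ_KO or M_KO with het or WT_flfl, and of MZKO with del or het, group and prefix cannot be told apart.

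The pathway was expressed throughout both stages, with a wide spread of level between its steps. Per kilobase of exon, Fdps, which joins isoprenoid units into farnesyl diphosphate, had the highest median level in both stages, at 70.2 CPM per kb in blastocysts and 122 CPM per kb in morulae. Acat2, which condenses acetyl-CoA at the entry of the chain, ranked second in blastocysts at 53.4 CPM per kb, and Fdft1, which makes squalene, ranked second in morulae at 84.4 CPM per kb but 13th in blastocysts at 14.2 CPM per kb. Elovl6, which lengthens saturated and monounsaturated chains, and Acly, which releases cytosolic acetyl-CoA from citrate, were within the top 5 in both stages. At the other end stood Tm7sf2, a sterol reductase, with 0.726 CPM per kb in blastocysts and 0.125 CPM per kb in morulae, and Fads2, the desaturase that opens the polyunsaturated chain, with 0.0219 and 0.305 CPM per kb in those stages. Acat2 lies beside its near copy Acat3, and Scd1 and Scd2 are close relatives, so reads of these genes are uncertain where the authors' counting could split them. Exons of Fdft1 overlap those of Ctsb on the opposite strand, and in these unstranded libraries the reads of the overlap cannot be assigned to either. The ranges of all blastocysts and all morulae did not overlap for 2 of the 34 members reaching the level compared. Pmvk, which phosphorylates mevalonate a second time, spanned 44.6 to 101 CPM in blastocysts and 15.7 to 37.7 CPM in morulae. Scap, the SREBP escort, spanned 19.8 to 37.9 CPM in blastocysts and 44.3 to 122 CPM in morulae. Over all genes so compared, 6.13% lay wholly higher in blastocysts and 2.74% wholly higher in morulae, and these ranges carry no test because of the separate tables.

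In MZ_KO blastocysts the fatty acid desaturase Scd1 and the elongase Elovl5 fell against every other group, the sterol carrier Stard4 rose against WT_flfl and het, and most enzymes of cholesterol synthesis did not pass the test. A gene was tested where at least 3 embryos of its table reached 10 CPM, which 33 members did in blastocysts, all but Tm7sf2 (1.95 to 9.30 CPM) and Fads2 (0 to 8.41 CPM). Differences are log2 differences of CPM + 1 from limma, with p adjusted over all 9585 genes, and understate the change of genes near 0. Against WT_flfl 1 member rose and 4 fell, 15.2% of the 33, where 13.2% of all genes changed (4.84% higher and 8.36% lower). Against het 2 rose and 2 fell (12.1%), where 17.9% of all genes changed (7.02% higher and 10.8% lower). Against M_KO 0 rose and 3 fell (9.09%), where 11.8% of all genes changed (3.74% higher and 8.09% lower). The share of changed members was near that of all genes in each comparison. Without WT_flfl 1 and het 6 the counts were 2 members against WT_flfl, 1 against het and 3 against M_KO. The median difference of the 33 was −0.35 against WT_flfl, −0.11 against het and −0.18 against M_KO, where the medians over all genes were −0.05, −0.06 and −0.03. The 3 comparisons share the MZ_KO embryos. Only that against M_KO stays within 1 title prefix, so in those against WT_flfl and het group and prefix cannot be told apart.

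**Figure D1:**
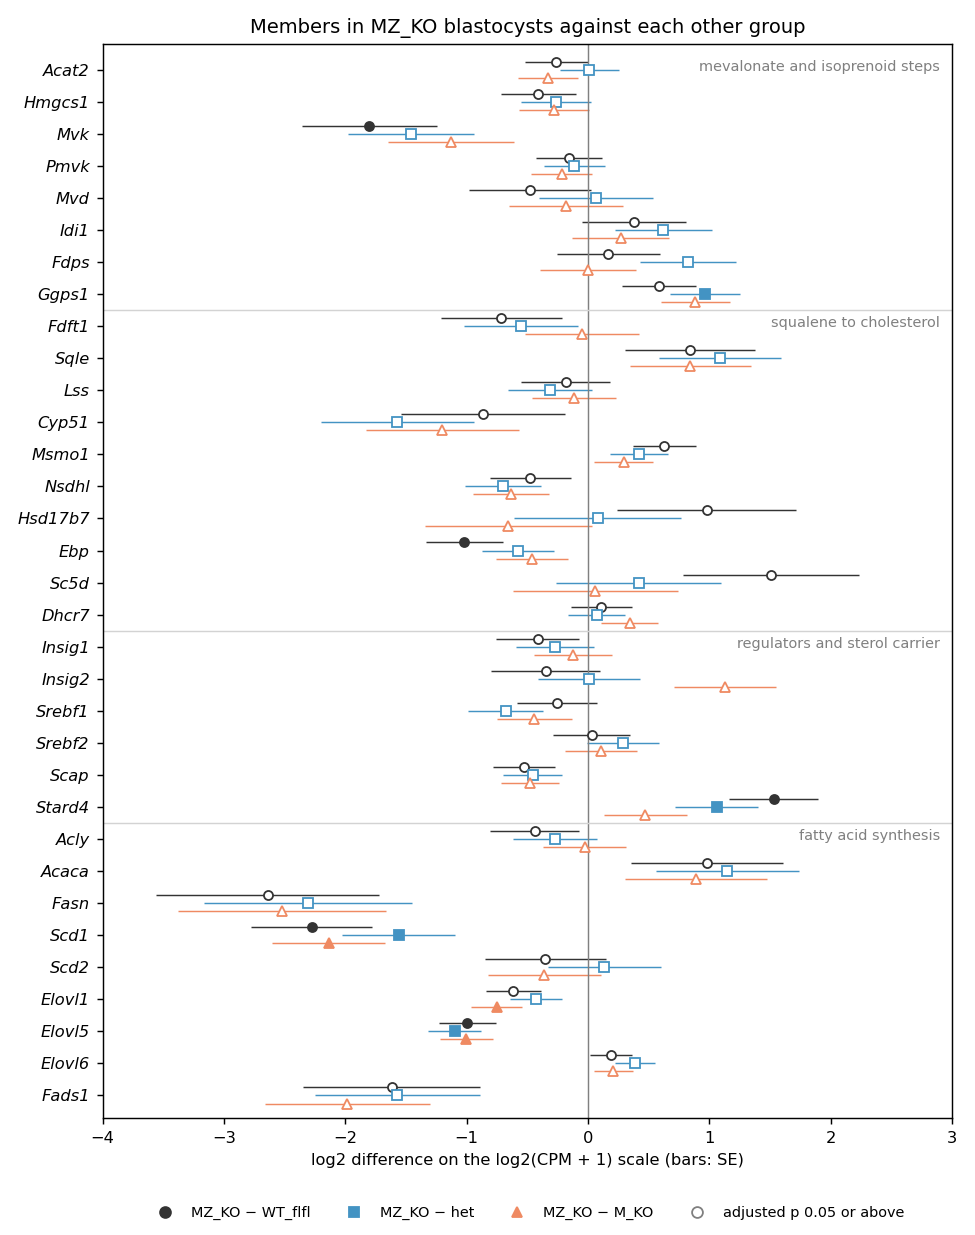
Differences of 33 members between MZ_KO blastocysts and each other group, as log2 differences on the log2(CPM + 1) scale (x axis) with their SE as bars, grouped by role down the page. Filled symbols mark an adjusted p under 0.05, and Scd1 and Elovl5 are the members with 3 filled symbols.

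The synthesis of unsaturated and long fatty acids held the largest of these changes. Scd1 (ENSMUSG00000037071, chr19:44394455-44407879 on the minus strand of GRCm38) puts the first double bond into saturated acyl chains and so makes oleate and palmitoleate. It stood at 18.2, 42.3 and 6.60 CPM in the MZ_KO embryos, against 65.1, 67.1, 85.5 and 111 CPM in M_KO, 32.8, 45.5, 60.5 and 90.1 CPM in het, and 63.6, 75.7 and 144 CPM in WT_flfl. Each MZ_KO embryo was below every M_KO and WT_flfl embryo, while MZ_KO 6 lay within the range of het. The fall was −2.28 against WT_flfl (SE 0.50, adjusted p = 0.00667), −2.14 against M_KO (SE 0.47, adjusted p = 0.00703) and −1.56 against het (SE 0.47, adjusted p = 0.0293). Against WT_flfl and M_KO the call held whichever single embryo was left out. Against het it was lost without MZ_KO 2, MZ_KO 7, het 6 or het 8, with the difference at −0.92 (adjusted p = 0.147) without MZ_KO 7, and without WT_flfl 1 and het 6 together (adjusted p = 0.0762). Scd2, the close relative of Scd1, did not pass the test, at 69.8, 261 and 52.1 CPM in MZ_KO against 148, 156 and 86.9 CPM in WT_flfl.

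Elovl5 (ENSMUSG00000032349, chr9:77917364-77984519, plus strand) adds carbons to polyunsaturated chains of middle length. Its values were 44.8, 24.4 and 41.1 CPM in MZ_KO, against 85.8, 66.8, 70.7 and 67.2 CPM in M_KO, 81.2, 74.4, 94.2 and 63.1 CPM in het, and 79.8, 64.7 and 71.8 CPM in WT_flfl. The 3 MZ_KO embryos were the lowest of all 14 blastocysts, with no overlap. The differences were −1.10 against het (SE 0.22, adjusted p = 0.00300), −1.002 against M_KO (SE 0.22, adjusted p = 0.00777) and −0.99 against WT_flfl (SE 0.24, adjusted p = 0.0109). Those against het and M_KO kept their call whichever single embryo was left out. That against WT_flfl was −0.73 without MZ_KO 6 (adjusted p = 0.0501) and −0.92 without WT_flfl 1 and het 6 (adjusted p = 0.0536).

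Elovl1 (ENSMUSG00000006390, chr4:118428093-118432953, plus strand), which lengthens saturated and monounsaturated chains to very long ones, fell against M_KO alone. It stood at 59.4, 69.2 and 88.8 CPM in MZ_KO, against 148, 113, 121 and 107 CPM in M_KO, 75.8, 97.3, 85.6 and 137 CPM in het, and 110, 95.5 and 127 CPM in WT_flfl. All MZ_KO embryos were below all M_KO and all WT_flfl embryos but not below all het embryos. The difference was −0.75 against M_KO (SE 0.21, adjusted p = 0.0299), −0.62 against WT_flfl (adjusted p = 0.0824) and −0.43 against het (adjusted p = 0.178). Without MZ_KO 2, MZ_KO 6, M_KO 1 or M_KO 4 the call against M_KO was lost, with adjusted p up to 0.128. Exons of Elovl1 overlap those of Cdc20 on the opposite strand, and in these unstranded libraries the reads of the overlap cannot be assigned to either.

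The other fatty acid genes gave no call against any group. Fasn, the multi-domain synthase that builds palmitate, showed the largest differences that missed the threshold. It had 20.3 and 32.6 CPM in MZ_KO 2 and MZ_KO 6 and 0 CPM in MZ_KO 7, against 41.0, 21.6, 82.3 and 86.3 CPM in M_KO, 68.0, 25.6, 26.6 and 75.0 CPM in het, and 52.7, 66.7 and 46.6 CPM in WT_flfl. MZ_KO lay below WT_flfl with no overlap, and MZ_KO 6 lay within the ranges of M_KO and het. The differences were −2.64 against WT_flfl, −2.31 against het and −2.52 against M_KO (adjusted p = 0.0675, 0.0737 and 0.0669), and single embryos set the size. Without MZ_KO 7, the embryo at 0 CPM, the differences were −1.06, −0.73 and −0.94 in that order (adjusted p = 0.233, 0.371 and 0.282), and without MZ_KO 6 all 3 passed (adjusted p = 0.0199, 0.0209 and 0.0206). Fads1, a desaturase of polyunsaturated chains, had 5.37, 0 and 3.61 CPM in MZ_KO against 6.25, 13.5, 13.6 and 13.5 CPM in M_KO, with differences of −1.98 against M_KO, −1.57 against het and −1.62 against WT_flfl. Acaca, which makes malonyl-CoA for the synthase, had 9.75, 42.1 and 17.9 CPM in MZ_KO against 9.18, 13.9 and 6.61 CPM in WT_flfl, a difference of 0.98 (adjusted p = 0.328). Acly, Scd2 and Elovl6 differed by at most 0.44 in size from any other group.

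**Figure D2:**
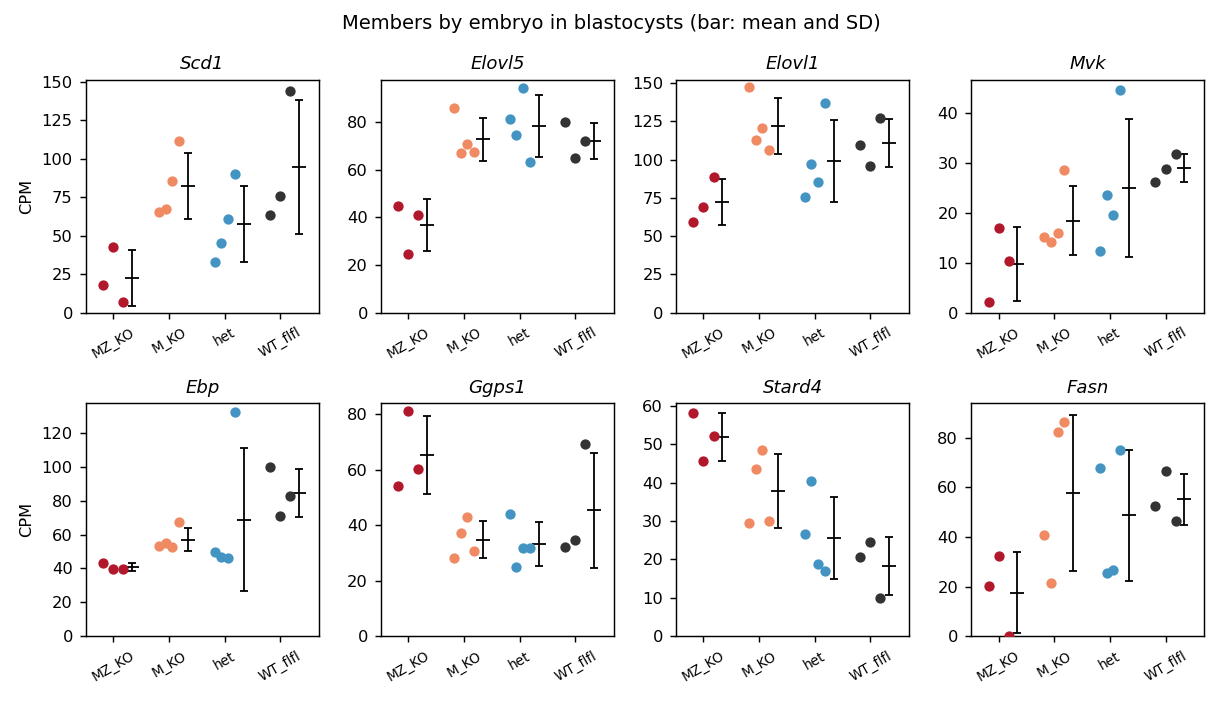
CPM (y axis, linear, from 0) of the 7 members that passed the test in some comparison of MZ_KO blastocysts, and of Fasn, with 1 point per embryo and the group mean with its SD beside the points. MZ_KO embryos are lowest for Elovl5 at 24.4 to 44.8 CPM and highest for Stard4 at 45.6 to 58.1 CPM against WT_flfl and het.

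Of the 8 genes of the mevalonate and isoprenoid steps, 1 fell against WT_flfl and 1 rose against het. Mvk (ENSMUSG00000041939, chr5:114444269-114460591, plus strand) phosphorylates mevalonate first. It had 2.04, 16.9 and 10.4 CPM in MZ_KO, against 15.04, 14.1, 15.9 and 28.6 CPM in M_KO, 12.4, 23.6, 19.5 and 44.5 CPM in het, and 26.1, 28.8 and 31.7 CPM in WT_flfl. All MZ_KO embryos were below all WT_flfl embryos, and MZ_KO 6 overlapped M_KO and het. The difference from WT_flfl was −1.80 (SE 0.55, adjusted p = 0.0408). It was −1.06 without MZ_KO 2 (adjusted p = 0.178), and the call was also lost without any single WT_flfl embryo. Against het the difference was −1.46 (adjusted p = 0.0609) and against M_KO −1.13 (adjusted p = 0.175).

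Ggps1 (ENSMUSG00000021302, chr13:14050659-14063488, minus strand) makes the geranylgeranyl chain that anchors small GTPases to membranes. Its values were 54.3, 81.0 and 60.3 CPM in MZ_KO, against 28.3, 37.3, 43.0 and 30.7 CPM in M_KO, 43.9, 25.1, 31.9 and 31.7 CPM in het, and 32.0, 34.8 and 69.1 CPM in WT_flfl. The 3 MZ_KO embryos were above all M_KO and het embryos, and WT_flfl 9 lay among them. The rise against het was 0.96 (SE 0.29, adjusted p = 0.0293), and the differences of 0.88 from M_KO and 0.58 from WT_flfl did not pass (adjusted p = 0.0546 and 0.226). The call against het was lost without MZ_KO 6, MZ_KO 7, het 5 or het 6, with adjusted p up to 0.119. Exons of Ggps1 overlap those of Arid4b on the opposite strand. The remaining 6 genes of these steps, Acat2, Hmgcs1, Pmvk, Mvd, Idi1 and Fdps, passed in no comparison of MZ_KO, with differences between −0.48 for Mvd against WT_flfl and 0.82 for Fdps against het. Summed over the 8 genes, MZ_KO held 766 ± 135 CPM, M_KO 800 ± 147 CPM, het 645 ± 301 CPM and WT_flfl 785 ± 179 CPM (SD). Fdps against het was 0.82 (adjusted p = 0.163) and passed without het 8 (1.28, adjusted p = 0.00896), the het embryo with 432 CPM where the other 3 had 105 to 143 CPM.

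Among the squalene-to-cholesterol enzymes, 1 of the 10 tested passed. Ebp (ENSMUSG00000031168, chrX:8185329-8193512, minus strand) is the sterol isomerase that shifts the double bond of the second ring. It had 43.3, 39.5 and 39.9 CPM in MZ_KO, against 53.1, 55.1, 52.7 and 67.2 CPM in M_KO, 49.7, 46.8, 46.4 and 132 CPM in het, and 99.7, 71.1 and 82.9 CPM in WT_flfl. The 3 MZ_KO embryos were the lowest of all 14 blastocysts. The difference from WT_flfl was −1.02 (SE 0.32, adjusted p = 0.0429), and leaving out any 1 of the 6 embryos lost the call (adjusted p between 0.0653 and 0.135). Against het it was −0.58 (adjusted p = 0.189) and against M_KO −0.46 (adjusted p = 0.339). Sqle, the monooxygenase that opens the sterol part of the chain, had 99.1, 184 and 45.6 CPM in MZ_KO and 42.3, 50.9 and 65.6 CPM in WT_flfl. Its difference was positive against all 3 groups, 0.84 against WT_flfl, 1.09 against het and 0.84 against M_KO, with adjusted p = 0.323, 0.146 and 0.304 in that order. Against het it was 0.61 without MZ_KO 6 (adjusted p = 0.488) and 0.71 without het 5 (adjusted p = 0.346), and it passed without MZ_KO 7 (1.60, adjusted p = 0.0455) or het 8 (1.55, adjusted p = 0.0267). Cyp51, the lanosterol demethylase, had 9.83, 2.85 and 5.93 CPM in MZ_KO and 4.61, 13.01 and 21.2 CPM in WT_flfl, with differences of −0.87 against WT_flfl, −1.57 against het and −1.20 against M_KO (adjusted p = 0.430, 0.0957 and 0.236). The other 7 tested enzymes did not pass either. Their differences from WT_flfl were −0.71 for Fdft1, −0.18 for Lss (lanosterol synthase), −0.48 for Nsdhl, 0.98 for Hsd17b7, 0.63 for Msmo1, 1.51 for Sc5d and 0.11 for Dhcr7, which takes the last step. Adjusted p for these lay between 0.118 and 0.822. Summed CPM over the 11 genes was 514 ± 111 in MZ_KO, 489 ± 59.4 in M_KO, 560 ± 284 in het and 509 ± 80.8 in WT_flfl (SD).

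Of the 6 regulators and carriers, Stard4 rose and the other 5 gave no call. Stard4, a soluble protein that ferries cholesterol between membranes, had 58.1, 45.6 and 52.0 CPM in MZ_KO, against 29.5, 43.4, 48.4 and 29.96 CPM in M_KO, 26.6, 40.4, 18.8 and 16.97 CPM in het, and 20.6, 24.6 and 9.99 CPM in WT_flfl. All MZ_KO embryos lay above all het and WT_flfl embryos, and M_KO 4 lay among them. The rise was 1.53 against WT_flfl (SE 0.37, adjusted p = 0.0112) and 1.06 against het (SE 0.34, adjusted p = 0.0415), and the difference from M_KO was 0.47 (adjusted p = 0.405). The call against WT_flfl was lost without WT_flfl 9 (1.16, adjusted p = 0.0561), and that against het was lost in 6 of the 7 fits that left out an embryo (adjusted p up to 0.127). M_KO against WT_flfl gave 1.06 for the same gene at an unadjusted p of 0.00688 and an adjusted p of 0.818. Scap had 20.1, 27.1 and 19.8 CPM in MZ_KO against 27.5, 34.95 and 34.8 CPM in WT_flfl, with differences of −0.53, −0.46 and −0.48 from WT_flfl, het and M_KO (adjusted p = 0.190, 0.200 and 0.215). Srebf1, Srebf2 and Insig1 differed by at most 0.68 in size, and Insig2, a retention factor for Scap, was 1.13 above M_KO (adjusted p = 0.0943) and 0.35 below WT_flfl on the log2 scale.

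Of the 33 tested members, all MZ_KO values were above all WT_flfl values for 2 and below them for 10, where 14.9% and 17.4% of all genes were so separated. The 10 below were Acat2, Mvk, Ebp, Nsdhl, Insig1, Scap, Fasn, Scd1, Elovl1 and Elovl5, and the 2 above were Msmo1 and Stard4. Against het 3 members lay wholly above and 4 wholly below, where 12.5% and 14.4% of all genes did. Against M_KO 2 lay wholly above and 5 wholly below, where 9.96% and 12.2% of all genes did. The libraries held whole embryos, in which fewer cells of a type and less RNA per cell cannot be told apart, and some lineage markers moved with the same groups. Of 6 primitive endoderm markers 0 rose and 3 fell against WT_flfl, among them Gata4 with 0, 0 and 2.54 CPM in MZ_KO against 10.2, 19.2 and 38.4 CPM in WT_flfl. The others did not pass: Gata6 averaged 153 CPM in MZ_KO against 143 CPM in WT_flfl, Pdgfra 45.4 against 41.3 CPM and Col4a1 40.7 against 61.7 CPM. The summed level of the 6 was 224 to 308 CPM in MZ_KO, 294 to 432 CPM in M_KO, 256 to 771 CPM in het and 271 to 455 CPM in WT_flfl. Of 7 tested trophectoderm markers 0 rose and 2 fell against WT_flfl (Krt8 and Eomes), and the sum over 8 was 4429 to 5871 CPM in MZ_KO, 5991 to 10120 CPM in M_KO, 4853 to 8081 CPM in het and 7543 to 7865 CPM in WT_flfl. Of 6 tested epiblast markers 1 rose and 1 fell (Nanog and Tdgf1), with sums of 868 to 1069 CPM in MZ_KO, 1032 to 1086 CPM in M_KO, 731 to 921 CPM in het and 736 to 971 CPM in WT_flfl. The part of these shifts in the values of the members was not tested.

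None of the other blastocyst comparisons changed a member. M_KO against WT_flfl, M_KO against het and het against WT_flfl each gave 0 of 33 members, and 0% of the 9585 genes, with limma, and voom weighting of the recovered reads also gave 0 members in each. At an unadjusted p under 0.05 there were 4, 2 and 0 members in that order. No share of all genes was taken at that level, so these counts are not read as changes. The 4 in M_KO against WT_flfl were Insig2 (−1.47), Stard4 (1.06), Hsd17b7 (1.63) and Sc5d (1.45). The 2 in M_KO against het were Insig2 (−1.12) and Fdps (0.83). Insig2 stood at 15.6, 8.02, 6.23 and 5.03 CPM in M_KO, against 22.3, 13.2, 17.3 and 22.9 CPM in het and 15.4, 19.1 and 46.4 CPM in WT_flfl, and M_KO 1 overlapped both.

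In morulae no member passed the test in any comparison. Here 33 members were tested, all but Mvk (0 to 7.42 CPM) and Tm7sf2 (0 to 12.8 CPM). MZKO against het gave 0 members, where 0.482% of 9953 genes changed (0.412% higher and 0.0703% lower), del against het 0, where 0.01% changed, and MZKO against del 0, where 0.181% changed (0.141% higher and 0.0402% lower), and voom weighting also gave 0 in each, as did limma without MZKO 1 and het 1. At an unadjusted p under 0.05 there were 4, 3 and 1 members in that order, and no share of all genes was taken at that level. Sqle was the member nearest the threshold and is described for that reason, chosen after its values were seen. It spanned 90.9 to 252 CPM in MZKO (median 205 CPM), with 183, 110, 250 and 130 CPM in del, against 51.0, 93.3 and 67.3 CPM in het. The 4 del embryos lay above all het embryos, which held for 1 member of 33 and for 2.95% of all genes. Of the MZKO embryos MZKO 8 alone fell inside the het range. MZKO exceeded het by 1.35 (SE 0.35, unadjusted p = 0.00123, adjusted p = 0.123) and del exceeded het by 1.21 (SE 0.38, unadjusted p = 0.00512, adjusted p = 0.646). Without MZKO 8 the difference from het was 1.53 (adjusted p = 0.0466), and in the other 8 fits that left out an embryo it did not pass. MZKO and del share the het embryos as their comparison group. Blood markers summed to 394 to 15542 CPM in those het embryos, 11.6 to 90.3 CPM in del and 7.41 to 4087 CPM in MZKO. The 6 trophectoderm markers present summed to 752 to 1272 CPM in het, 237 to 723 CPM in del and 325 to 1126 CPM in MZKO. No marker of either kind passed the test in MZKO or del against het. The part of these differences in the values of the members was not tested.

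**Figure D3:**
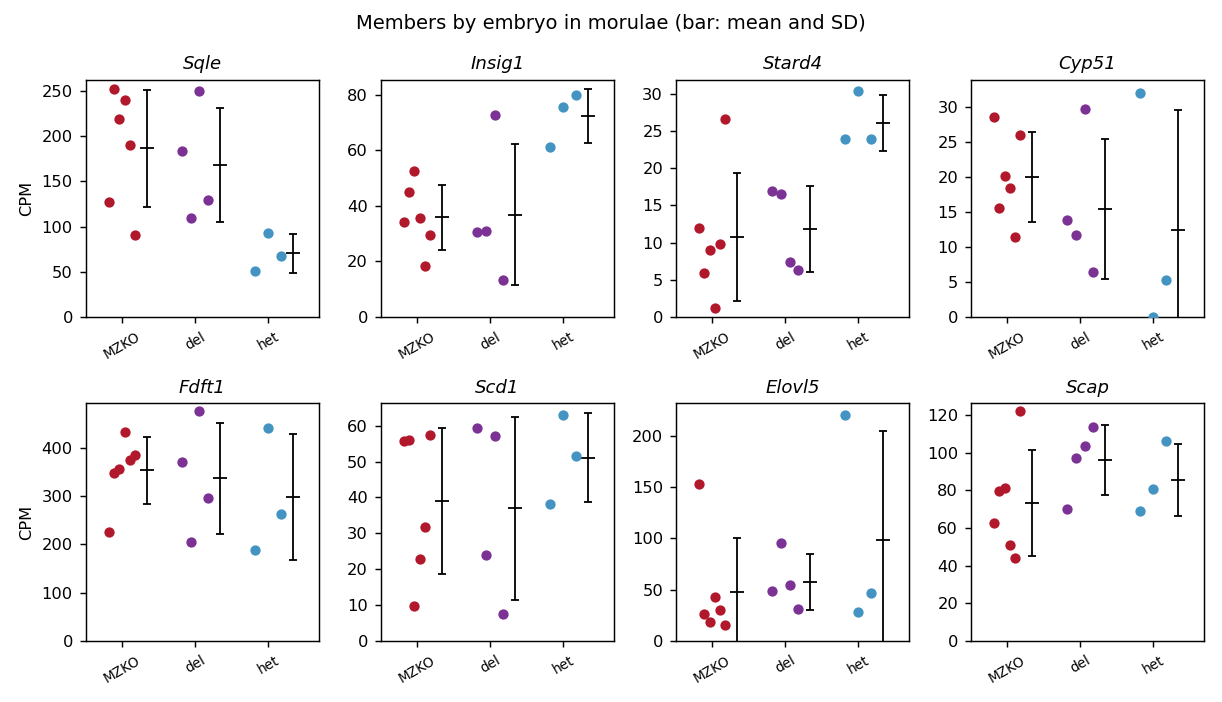
CPM (y axis, linear, from 0) of 8 members in morulae, with 1 point per embryo and the group mean with its SD beside the points, and with any part of an SD bar under 0 not drawn. Sqle is 51.0 to 93.3 CPM in het, and Insig1 is 61.3 to 79.7 CPM in het and 18.5 to 52.4 CPM in MZKO.

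Insig1, which is itself switched on by SREBP and holds Scap back, spanned 18.5 to 52.4 CPM in MZKO (median 34.9 CPM), with 30.5, 30.8, 72.7 and 13.4 CPM in del, against 61.3, 75.5 and 79.7 CPM in het. It was the 1 member of 33 whose MZKO values lay wholly below those of het, as 1.91% of all genes did. The difference was −1.05 for MZKO (unadjusted p = 0.0300, adjusted p = 0.493) and −1.18 for del (unadjusted p = 0.0246, adjusted p = 0.877). Stard4 spanned 1.18 to 26.6 CPM in MZKO (median 9.41 CPM), with 17.01, 16.6, 7.33 and 6.39 CPM in del, against 23.9, 30.4 and 23.9 CPM in het. The del values were all below het, which held for 1 member of 33 and for 3.02% of all genes. Of the MZKO embryos 1 was not below het, and the MZKO difference was −1.56 (unadjusted p = 0.0337, adjusted p = 0.518). Cyp51 exceeded het by 1.74 in MZKO at an unadjusted p of 0.0415, with het embryos at 32.0, 0.056 and 5.29 CPM. The members called in blastocysts did not pass here: Scd1 spanned 9.78 to 57.5 CPM in MZKO (median 43.8 CPM) against 38.3, 63.1 and 51.6 CPM in het, and Elovl5 15.4 to 153 CPM (median 27.8 CPM) against 220.3, 28.3 and 46.9 CPM in het.

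The knockout effect against het was also compared between the stages, as the blastocyst difference minus the morula difference, each taken within its own table. None of the 32 members tested in both passed with limma, where 1.61% of 8572 genes did (0.63% with a positive and 0.98% with a negative difference). Of the 32, 2 had an unadjusted p under 0.05, and no share of all genes was taken at that level. Stard4 had an effect of 1.06 in blastocysts and −1.56 in morulae, and the difference between them was 2.62 (SE 0.76, adjusted p = 0.0714). It passed with voom weighting (2.87, adjusted p = 0.0198), without morula MZKO 8 (2.94, adjusted p = 0.0259) and without morula het 1 (2.68, adjusted p = 0.0445), but not when any other single embryo was left out, nor with del in place of MZKO (2.25, adjusted p = 0.275). Cyp51 had an effect of −1.57 in blastocysts and 1.74 in morulae, a difference of −3.31 (SE 1.08, adjusted p = 0.106). Without morula het 1, which stood apart, it was −4.54 (adjusted p = 0.00813), without morula het 5, at 0.056 CPM, −2.05 (adjusted p = 0.310), and with del in place of MZKO −2.83 (adjusted p = 0.368). Hmgcs1, the synthase that commits acetyl units to the chain, gave −1.14 with all embryos (adjusted p = 0.354). It was −1.95 without morula het 1 (adjusted p = 0.0267), −0.73 without morula het 5 or het 7 (adjusted p = 0.642 and 0.681), and −0.34 with del in place of MZKO (adjusted p = 0.889). The count was 3 members without het 1, and 3 without MZKO 1 and het 1.

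Single embryos differed from the rest of their group in many members at once. In blastocysts, het 8 had the highest level of all 14 embryos in 11 of 33 members and in 10 of the 18 tested sterol enzymes, where it was highest for 7.15% of all genes. Its Hmgcs1, Mvd, Fdps, Fdft1, Cyp51 and Ebp were 112, 85.5, 432, 232, 69.9 and 132 CPM, and the highest of the other 3 het embryos for these genes were 72.0, 24.6, 143, 62.0, 15.9 and 49.7 CPM. The same embryo had the highest primitive endoderm marker sum (771 CPM) and the lowest blood marker sum (26.4 CPM) of the blastocysts, and the part of these in its sterol genes was not tested. MZ_KO 6 was highest in 8 members, among them Sqle at 184 CPM, Scd2 at 261 CPM and Acaca at 42.1 CPM, where it was highest for 10.8% of all genes. In morulae, het 1 was highest in 8 members, 7 of them of the 17 tested sterol enzymes, and MZKO 1 in 6 members, 4 of them fatty acid genes, where they were highest for 8.09% and 13.4% of all genes. In MZKO 1, Fads1 was 152 CPM and Elovl5 153 CPM, and the other 5 MZKO embryos reached 22.99 and 43.1 CPM.

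**Figure D4:**
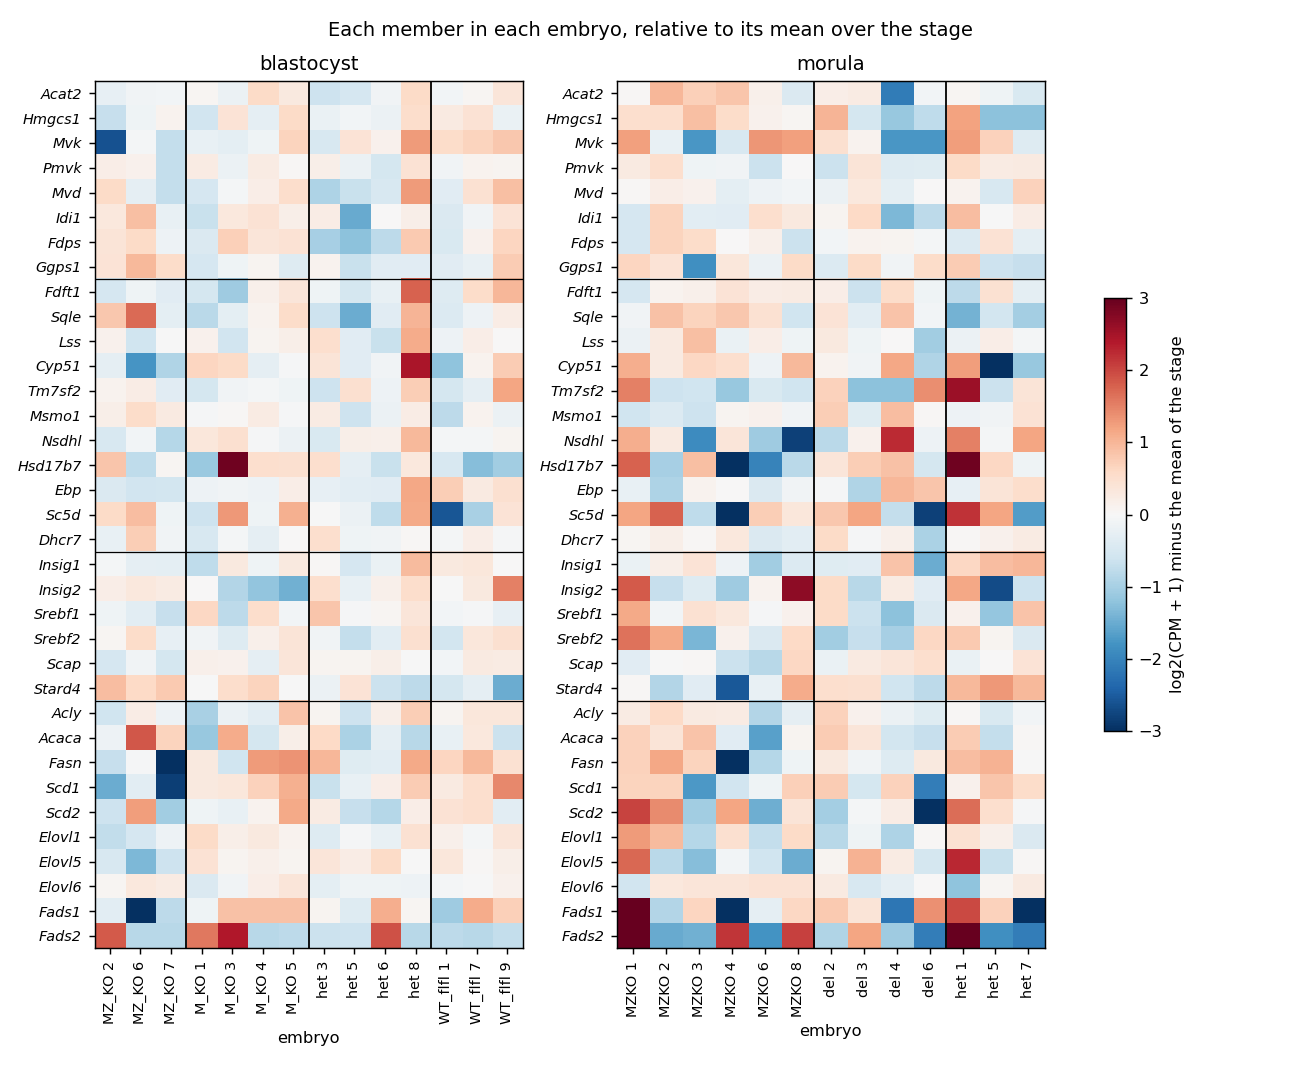
Each member (rows, grouped by role) in each embryo (columns, grouped as labelled), coloured by log2(CPM + 1) minus its mean over all embryos of the stage, with colours capped at 3 either way. Most sterol rows of blastocyst het 8 lie above the stage mean, and Fads1 and Fads2 lie above it in morula MZKO 1.

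Around the pathway, a minority of the genes in each list changed in MZ_KO blastocysts. The counts below stand beside 4.84% higher and 8.36% lower of all genes against WT_flfl, 7.02% and 10.8% against het, and 3.74% and 8.09% against M_KO. These lists came from textbook knowledge and were not chosen by how their genes moved, though results of these data were already known. Of 12 genes of SREBP processing and turnover, all tested in blastocysts, 0 rose and 4 fell in MZ_KO against WT_flfl, 0 rose and 4 fell against het, and 0 rose and 3 fell against M_KO. The other 8, 8 and 9 genes did not pass, and the medians were −0.49, −0.64 and −0.65 in that order. Erlin1, which binds Insig and the reductase and restrains SREBP, had 7.58, 7.16 and 0.848 CPM in MZ_KO, against 12.6, 10.5, 27.9 and 15.2 CPM in M_KO, 15.8, 27.4, 39.6 and 20.8 CPM in het, and 19.6, 31.5 and 29.6 CPM in WT_flfl. MZ_KO was below every other embryo, with differences of −2.43 from WT_flfl, −2.33 from het and −1.70 from M_KO (adjusted p = 0.00781, 0.00528 and 0.0396), and with voom weighting the one from M_KO did not pass (adjusted p = 0.122). That from M_KO was also lost without MZ_KO 7 (−0.97, adjusted p = 0.175), M_KO 1, M_KO 4 or M_KO 5. In morulae Erlin1 spanned 38.1 to 117 CPM in MZKO (median 74.8 CPM) against 39.6, 33.6 and 23.1 CPM in het. The effect differed between stages by −3.53 (SE 0.65, adjusted p = 0.00417), and this held whichever embryo was left out. Mbtps1, the site-1 protease that makes the first of the cuts that release SREBP, had 41.3, 10.6 and 24.3 CPM in MZ_KO, against 94.5, 21.5, 75.8 and 52.2 CPM in M_KO, 95.0, 59.1, 89.4 and 69.9 CPM in het, and 70.9, 101 and 54.3 CPM in WT_flfl. MZ_KO lay below all het and WT_flfl embryos, and M_KO 3 lay among the MZ_KO values. The differences were −1.75 from het (adjusted p = 0.0133) and −1.68 from WT_flfl (adjusted p = 0.0295). Without MZ_KO 6 they were −1.25 (adjusted p = 0.0789) and −1.18 (adjusted p = 0.128), and the one from WT_flfl was also lost without MZ_KO 7, WT_flfl 1 or WT_flfl 7. Its stage difference was −2.32 (SE 0.59, adjusted p = 0.0398), lost in 9 of the 16 fits that left out an embryo. Hsp90b1, an endoplasmic reticulum chaperone, fell by 1.05 against WT_flfl, by 1.10 against het and by 1.01 against M_KO on the log2 scale (adjusted p = 0.00349, 0.00130 and 0.00322).

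**Figure D5:**
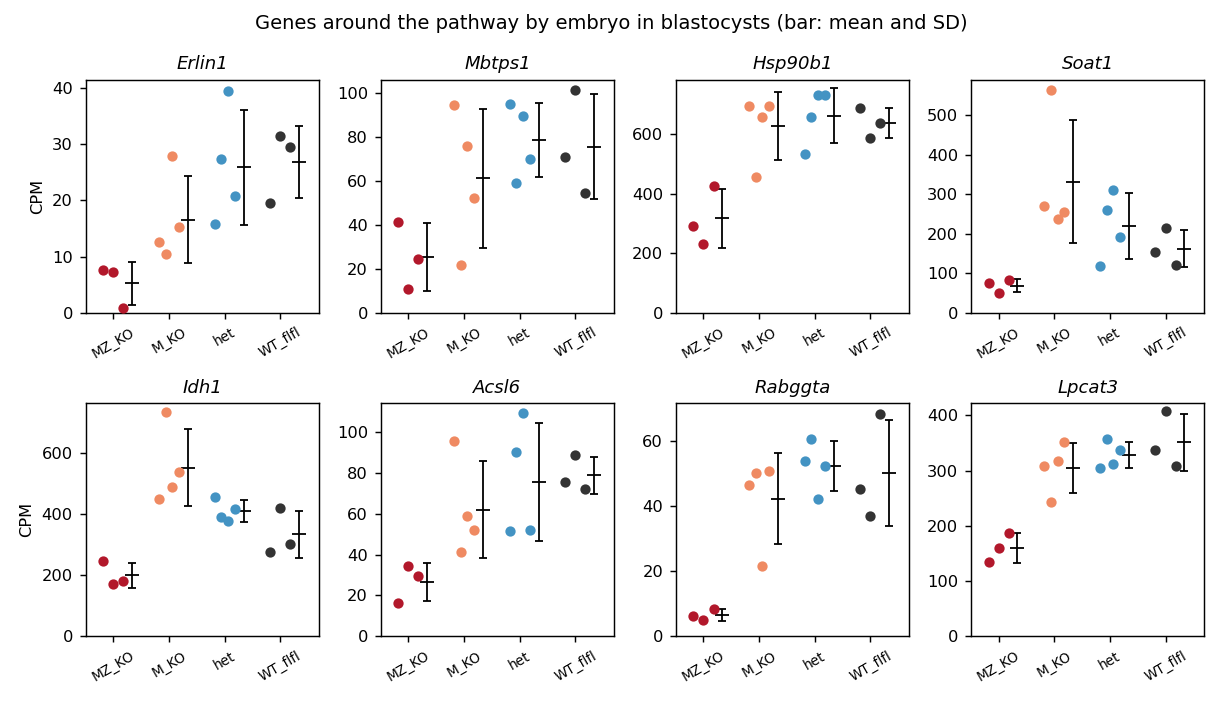
CPM (y axis, linear, from 0) of 8 genes around the pathway in blastocysts, with 1 point per embryo and the group mean with its SD beside the points. The 8 were picked from genes that passed as lower in MZ_KO, and genes of the same lists that rose or did not pass are not drawn. By that choice MZ_KO has the lowest mean in each panel, for example 4.91 to 8.55 CPM for Rabggta against 37.0 to 68.5 CPM in WT_flfl.

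Among genes that move or store sterol, the share that fell was near that of all genes. Of 10 tested genes of sterol transport, storage and sensing, 0 rose and 1 fell against WT_flfl, 1 rose and 1 fell against het, and 1 rose and 1 fell against M_KO. The fallen gene was Soat1, which esterifies cholesterol for storage, at 74.0, 49.5 and 81.7 CPM in MZ_KO against 153, 214 and 120 CPM in WT_flfl. MZ_KO lay below all other embryos, and the differences were −1.22 from WT_flfl, −1.62 from het and −2.20 from M_KO (adjusted p = 0.0307, 0.00332 and 0.000423). That from WT_flfl did not pass when MZ_KO 2, MZ_KO 6, WT_flfl 1 and WT_flfl 7 were left out in turn (adjusted p up to 0.126). Those that rose were Nr1h2, an oxysterol receptor, against het (0.51, adjusted p = 0.0498) and Osbpl9, a lipid transfer protein, against M_KO (1.28, adjusted p = 0.0192). Nr1h2 lost its call in 6 of the 7 fits that left out an embryo, all but that without MZ_KO 7 (0.34 without MZ_KO 6, adjusted p = 0.238), and Osbpl9 without MZ_KO 2, MZ_KO 7, M_KO 1 or M_KO 4 (adjusted p up to 0.0741). Of 9 tested genes that supply acetyl-CoA and NADPH, 0 rose and 2 fell against WT_flfl, 0 rose and 1 fell against het, and 0 rose and 2 fell against M_KO. Idh1, the NADPH-making isocitrate dehydrogenase of the cytosol, had 247, 170.2 and 181 CPM in MZ_KO against 276, 421 and 304 CPM in WT_flfl, and fell in all 3 comparisons (−0.73, −1.05 and −1.46 against WT_flfl, het and M_KO), the first of these lost without MZ_KO 6, MZ_KO 7 or WT_flfl 7 (adjusted p up to 0.115). Me1, the malic enzyme of the cytosol, fell against WT_flfl (−1.10, adjusted p = 0.00596) and M_KO (−1.18, adjusted p = 0.00249).

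In the neighbouring branches, few genes of each list passed, where 13.2% of all genes passed against WT_flfl, 17.9% against het and 11.8% against M_KO. Of 15 genes that use isoprenoids, 0 rose and 1 fell against WT_flfl, 1 rose and 3 fell against het, and 0 rose and 1 fell against M_KO. Rabggta, a subunit of the enzyme that attaches geranylgeranyl chains to Rab proteins, had 6.25, 4.91 and 8.55 CPM in MZ_KO, against 46.7, 50.4, 21.6 and 50.8 CPM in M_KO, 54.0, 60.9, 42.3 and 52.4 CPM in het, and 45.4, 37.0 and 68.5 CPM in WT_flfl. MZ_KO was wholly below the rest, by −2.74 against WT_flfl, −2.83 against het and −2.47 against M_KO (adjusted p = 8.38e-05, 2.56e-05 and 0.000114). Rabggtb, its partner subunit, was 0.66 above het (adjusted p = 0.0241), while Nus1 was below het (−0.92, adjusted p = 0.0191). The call of Rabggtb was lost without any 1 MZ_KO embryo, het 3 or het 6 (adjusted p up to 0.0708), and that of Nus1 without MZ_KO 6 (adjusted p = 0.0915). Of 14 tested genes of other fatty acid synthesis, elongation and activation, 0 rose and 1 fell against WT_flfl, 0 rose and 2 fell against het, and 0 rose and 2 fell against M_KO. Acsl6, an acyl-CoA synthetase, fell in each (−1.59, −1.46 and −1.18 against WT_flfl, het and M_KO), Hacd2 fell against het (−0.77, adjusted p = 0.0470) and Hacd3 against M_KO (−0.91, adjusted p = 0.0356). With 1 embryo left out, Acsl6 against M_KO lost its call in 3 of 7 fits (without MZ_KO 2, M_KO 1 or M_KO 4), Hacd2 in 4 of 7 (MZ_KO 6, MZ_KO 7, het 5 or het 8) and Hacd3 in 5 of 7 (MZ_KO 2, MZ_KO 7, M_KO 1, M_KO 4 or M_KO 5). Of 13 tested genes of glycerolipid synthesis and lipid droplets, 0 rose and 1 fell against WT_flfl, 0 rose and 2 fell against het, and 0 rose and 1 fell against M_KO. Lpcat3, which puts polyunsaturated chains into phospholipids, had 134, 159 and 187 CPM in MZ_KO against 338, 408 and 308 CPM in WT_flfl, and fell by 1.13 against WT_flfl (adjusted p = 0.000382), by 1.04 against het (adjusted p = 0.000384) and by 0.93 against M_KO (adjusted p = 0.00122) on the log2 scale. Exons of Lpcat3 overlap those of Emg1 on the opposite strand. Lpin3, a phosphatidate phosphatase, differed from het by −3.33 (adjusted p = 0.0238), lost without MZ_KO 2, MZ_KO 6, het 3 or het 8 (adjusted p up to 0.0877). Its level spanned 0 to 2.21 CPM in MZ_KO, 0 to 12.3 CPM in M_KO and 0.923 to 10.4 CPM in WT_flfl, against 4.60 to 29.6 CPM in het. Against M_KO and WT_flfl Lpin3 did not pass. In morulae none of these 6 lists held a gene that passed with limma in MZKO against het, out of 76 tested. Of the 76, 4 had an unadjusted p under 0.05, and no share of all genes was taken at that level.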

How the data were processed

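Single CD1 morulae and blastocysts were sequenced from polyadenylated RNA after SMART-Seq amplification, per the labels' protocols. Cutadapt 1.14, Bowtie2 2.2.9, RSEM 1.3.1 and the build GRCm38 are named in the submitters' processing notes. The authors deposited one table per stage with log2 values, in which each gene's reads plus 0.5 are divided by a scaled library size. Inverting this gave whole reads for 100% of values within 0.01 reads, and from these the CPM printed here. Of 28 labelled samples, 27 had a column, and a repeat of blastocyst het 3 was not analysed here. Non-gene entries were left out of the totals: 3 in the blastocyst table, at most 0.0114% of reads in an embryo.

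Genes with at least 10 CPM in 3 or more embryos of a table were fitted on log2(CPM + 1) with limma 3.58.1 in R 4.3.3, with an intensity trend and all groups of the stage in one fit. P-values were adjusted by Benjamini-Hochberg over all genes tested, at a threshold of 0.05, and the pipeline was tested on simulated data. The stage comparison used the same scale in genes tested in both tables. The text describes every member that passed in any comparison, and up to 4 genes of each accompanying list that passed, by smallest adjusted p. Genes that passed and are counted in a list but not named there are not reported here. The members and lists were chosen with earlier results of these data known. The negative-binomial count tests planned were not run, though whole reads were recovered. In their place stands limma's voom weighting of the recovered reads, chosen after seeing the data. Other alternatives were a pseudocount of 0.5, a filter of 1 CPM or none, unscaled library sizes, the 2 compared groups alone, a replicate block and leaving out embryos. The labels do not say whether embryos shared a mother or a day, so p-values measure only the spread between these embryos. Exons of 10 members overlap those of another gene on the opposite strand, and the kit does not mark strand. These are Cyp51 (with Akap9), Fdft1 (with Ctsb), Elovl1, Elovl6, Ggps1, Hmgcs1, Idi1, Lss, Scap and Srebf1. Of the named genes around the pathway, Acsl6, Hacd2, Hsp90b1, Lpcat3, Me1 and Osbpl9 (with Nrd1) have such an overlap. Python 3.11.15, pandas 2.3.3 and matplotlib 3.10.9 made the summaries and figures.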

Additional observations from a re-analysis of the deposited data

Results flagged for a closer look

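Dixon's test flags about 1 in 20 sets by chance only where values are independent and normally distributed. It was run here on CPM without a log, and the same embryos recur across members, so that rate does not apply. Each set was 1 member in 1 group of 4 to 10 embryos. By this test 1 embryo's level lay apart from the others of its group in 21 of 131 sets. Blastocyst het 8 held 6 of them, with Hmgcs1 at 112 CPM (the other 3 het embryos 67.2 to 72.0), Mvd at 85.5 (17.7 to 24.6), Fdps at 432 (105 to 143), Fdft1 at 232 (46.8 to 62.0), Cyp51 at 69.9 (9.28 to 15.9) and Ebp at 132 (46.4 to 49.7). Blastocyst M_KO 5 held 3, with Mvk at 28.6 CPM (14.1 to 15.9 in the other M_KO), Ebp at 67.2 (52.7 to 55.1) and Scd2 at 241 (92.2 to 117). Blastocyst M_KO 3 had Lss at 44.7 CPM, below the others (71.4 to 76.1), and Hsd17b7 at 96.8 (4.92 to 17.2), and M_KO 1 had Fads1 at 6.25, below the others (13.5 to 13.6).

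Among morulae, MZKO 1 held 5, with Srebf1 at 51.3 CPM (21.8 to 31.8 in the other MZKO), Elovl5 at 153 (15.4 to 43.1), Fads1 at 152 (0.557 to 22.99), Fads2 at 75.5 (0.212 to 17.5) and Elovl6 at 243, below the others (456 to 497). MZKO 3 had Lss at 221 CPM (102 to 142). In del, Hmgcs1 was 156 CPM in del 2 (34.4 to 52.7 in the others), Nsdhl 31.9 in del 4 (2.95 to 6.52) and Srebf2 34.8 in del 6 (10.4 to 13.6).

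For 2 genes around the pathway the knockout effect against het differed between blastocysts and morulae with limma, Erlin1 by −3.53 and Mbtps1 by −2.32 on the log2 scale, and stage cannot be told apart from sequencing batch.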

How the results depend on the processing

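Over all named differences, 559 alternatives kept the call, 144 lost it and none reversed it. Against WT_flfl, MZ_KO changed 5 members, against 3 with a filter of 1 CPM, 3 with no filter and 3 with voom, 2 without WT_flfl 1 and het 6 (the embryos with most haemoglobin RNA), and 2 to 4 with 1 embryo left out. Against het it changed 4, against 1 without that pair and 1 to 5 with 1 embryo left out, and against M_KO 3, with 2 to 4. In morulae MZKO against het gave 0 members and 0 to 1 with an embryo left out. The difference between stages gave 0 members, 1 with voom, 3 without MZKO 1 and het 1, and 0 to 3 with an embryo left out. The cause of these moves was not tested. Embryos with the same number were not paired: their deviations correlated at −0.12 to 0.14 between MZKO and del and at −0.144 and −0.12 between M_KO and het. With a replicate block, 0 members changed in MZKO against del and 0 in M_KO against het. Negative-binomial count tests planned on recovered reads were not run. Morula del 6, at 1635553 reads, limits the low genes of that group.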
